A study of Mus musculus with 9 samples.

Results

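Ribosome biogenesis genes encode the factors that transcribe, cut, modify and assemble ribosomal RNA in the nucleolus, and MYC is a transcription factor known for driving many of them in growing cells. Of the 40 genes listed here (Myc and 39 genes of ribosome biogenesis, chosen by name), 37 had at least 1 probe on the array and all 37 were tested, with 62 probes in all. Gnl3, Wdr43 and Utp20 had no probe matched by accession. The whole array named 16535 genes, of which 15808 were tested.

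FDCPmix cells are multipotent blood progenitors of mouse origin that can be kept dividing in culture without differentiating. They were transduced with lentivirus under those conditions, and viable GFP-positive cells were sorted 5 days later. There were 3 groups of 3 single-color arrays each, from cells given Gata2 shRNA (Gata2 KD), Pu.1 shRNA (Pu.1 KD) or the empty vector (EV). The control therefore carried the vector without a hairpin. The study speaks of a gene-specific hairpin for Gata2, and how many were used for Pu.1 is not given in the sources used here. Triplicates were made at the transduction step, and no source used here says whether the cells came from separate cultures, so p-values measure the spread between these samples, which may be in part technical. GATA2 is a transcription factor of progenitor and mast cells, and PU.1 (encoded by Spi1) is one of myeloid cells. The comparisons below ask what lowering each of them left of the gene program that makes ribosomes. All levels are given on a log2 scale relative to each array's 75th percentile of processed signal, and levels of different probes cannot be set against each other. A gene is said to have risen, fallen or been called when limma's adjusted p, taken over 36585 probes, was below 0.05.

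Across the 9 arrays, 80.4% to 89.6% of spots read well above background and no spot was saturated. EV replicate 3 had the lowest mean correlation with the other arrays (0.960), against 0.971 to 0.978 for the rest. Each of the 3 slides held 1 array of every group. The knockdowns were visible in their targets, with Gata2 lower on all 3 Gata2 KD arrays than on any EV array (change −1.63, limma adjusted p = 0.00398) and Spi1 lower on all 3 Pu.1 KD arrays (change −1.74, adjusted p = 0.0018). Spi1 also rose in Gata2 KD (change 1.37) and was 3.10 higher there than in Pu.1 KD. Gata2 was not called in Pu.1 KD (change −0.15). Differentiation markers moved with the groups. The summed linear signal of 12 neutrophil granule genes, in units of the array's 75th percentile, was 236 to 267 on EV, 1100 to 1310 on Gata2 KD and 104 to 122 on Pu.1 KD arrays. For 9 monocyte and macrophage genes it was 34.4 to 37.7, 217 to 273 and 14.6 to 15.9 in the same order. For 10 mast cell and basophil genes it was 275 to 311, 64 to 78 and 287 to 318, and for 9 erythroid genes 16.7 to 20.4, 12.5 to 17.6 and 23.2 to 26.7. The 10 progenitor genes summed to 75.5 to 98.5, 75.9 to 92 and 77.6 to 91, all 10 read well above background on all 9 arrays, and no listed marker with a probe was below background on every array. Similar sums can hide opposite moves of single genes. Of the 10 progenitor genes, which include Gata2 itself, 3 were called higher and 3 lower in Gata2 KD (changes from −1.63 to 2.15). Of the 10 mast cell and basophil genes, 2 were called higher and 3 lower in Pu.1 KD. The part of these cell type markers in the results below was not tested. In bulk RNA, fewer cells of a type and less RNA per cell cannot be told apart.

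Few of the ribosome biogenesis genes passed the test in any comparison, and Myc did not. In Gata2 KD none of the 37 was called in either direction, where 2.83% of all probes were called higher and 2.33% lower (limma). Of all calls in Gata2 KD 54.8% were higher, and 69.4% when arrays were scaled to the median. The count at an unadjusted p below 0.05 was 2 of 37 (5.41%), namely Rrs1 and Noc4l, against 15% of all probes. In Pu.1 KD, 1 of 37 fell, the assembly factor Grwd1, and none rose, beside 1.40% of all probes called lower and 1.23% called higher. Between the knockdowns, 1 of 37 was lower in Gata2 KD, Noc4l, and none was higher, beside 4.94% and 4.68% of all probes. At an unadjusted p below 0.05 the counts were 6 for Pu.1 KD against EV (16.2%, against 12.3% of all probes) and 4 between the knockdowns (10.8% against 18.7%). Each call among the members thus rests on a single gene.

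The intervals show how large a change could have been missed. In each of the 3 comparisons the 95% interval of the change lay within 1 log2 unit of 0 for 32 of the 37 genes (86.5%), though not for the same 32. The shares were 65.9%, 68.4% and 64% of all probes, and 70.2%, 73.4% and 67.5% of all named genes at 1 probe per gene. A change of 2-fold in either direction was therefore outside the interval of those genes in that comparison. The fitted change was smaller than 0.5 log2 units for 33 genes in Gata2 KD, for 31 in Pu.1 KD and for 35 between the knockdowns. The genes also varied less over the arrays than probes in general, with a median SD over all 9 arrays of 0.23 against 0.344. Of this smaller variance a larger share lay between groups, with a median of 44.2% against 22.5% for all probes. The median share between slides was 23.3% against 41.6%.

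**Figure D1:**
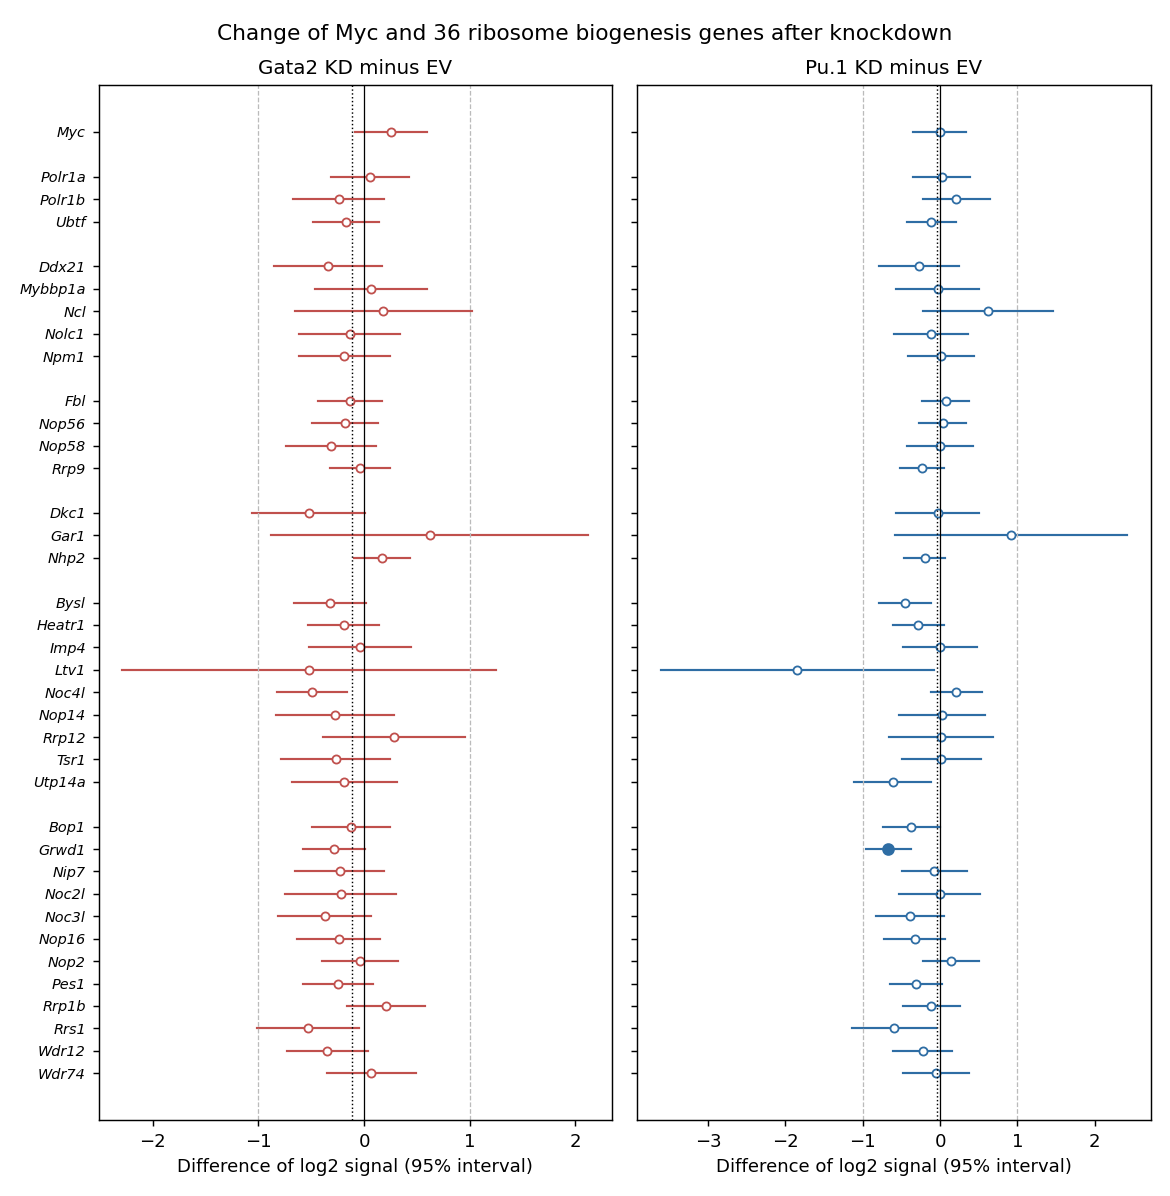
Difference of log2 signal between each knockdown and EV for 37 genes, grouped from top to bottom as Myc, RNA polymerase I transcription, multifunctional nucleolar proteins, box C/D, box H/ACA, small subunit assembly and large subunit assembly. Points are fitted changes, bars are 95% intervals, a filled point is a call at an adjusted p below 0.05, the dotted line is the median of all probes and dashed lines mark 1 log2 unit. Grwd1 in Pu.1 KD is the only filled point, and the widest bars belong to Ltv1 and Gar1.

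As a list the genes had medians slightly below 0. The median change was −0.19 in Gata2 KD, −0.05 in Pu.1 KD and −0.02 between the knockdowns. The median of all tested probes was itself −0.11, −0.04 and −0.06, so the list lay 0.07 below the array in Gata2 KD and within 0.04 of it in the other comparisons. This offset depended on single arrays. It was 0.02 in Gata2 KD and 0.13 in Pu.1 KD without EV replicate 2, −0.19 in Pu.1 KD and 0.18 between the knockdowns without Pu.1 KD replicate 2, and −0.13 between them without Pu.1 KD replicate 3. Over all arrays left out in turn it ran from −0.15 to 0.02, from −0.19 to 0.13 and from −0.13 to 0.18 in the 3 comparisons. Normexp and the deposited log2 values put it at −0.16 and −0.14 in Gata2 KD. In Gata2 KD 28 of 37 changes were negative (75.7%, against 66.1% of all probes), and in Pu.1 KD 25 of 37 (67.6% against 57%). Since every slide held 1 array of each group, the change could also be read within slides. In Gata2 KD the list's median was −0.04, −0.30 and −0.20 on the 3 slides, and 19 of 37 genes (51.4%) were lower on all 3, against 28.5% of all probes. In Pu.1 KD the slide medians were −0.14, −0.23 and −0.03, with 14 genes (37.8%) lower on all 3 slides against 23.1% of all probes. The arrays of the groups did not overlap for 11 genes in Gata2 KD (2 higher and 9 lower), where 19.0% of all probes did not overlap. There were 13 such genes in Pu.1 KD (2 higher and 11 lower, background 17.2%) and 10 between the knockdowns (4 higher and 6 lower, background 26.0%). These backgrounds pool both directions. Such probes were 2596 higher and 4340 lower in Gata2 KD, 2854 and 3444 in Pu.1 KD, and 4115 and 5405 between the knockdowns. At 1 probe per gene, of 15808 named genes, the counts were 1414 and 2339, 1342 and 1908, and 2178 and 2615. These comparisons share arrays, since both knockdowns were set against the same EV arrays.

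Myc itself was not called in any comparison. Its level was 2.912, 2.896 and 3.082 on the EV arrays, 3.395, 3.158 and 3.102 on the Gata2 KD arrays and 2.802, 2.936 and 3.140 on the Pu.1 KD arrays. All 3 Gata2 KD arrays lay above the EV arrays, the lowest by 0.02, while Pu.1 KD arrays lay on both sides of them. The change was 0.26 in Gata2 KD (SE 0.15, 95% interval −0.09 to 0.60, limma adjusted p = 0.545) and 0.00 in Pu.1 KD (interval −0.35 to 0.34, adjusted p = 1). The other 2 Myc probes gave 0.35 and 0.12 in Gata2 KD and 0.06 and −0.06 in Pu.1 KD, and neither was called.

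MYC binds the E-box and PU.1 binds ETS-type motifs, and the stretches below show where these letters occur near the start sites of genes described here. Promoter windows from RefSeq (GRCm38.p6, 250 bases before and 50 from the start site on) were matched for 34 of the 40 genes, and Myc, Npm1, Fbl, Rrp12, Bop1 and Rrs1 had none. The E-box CACGTG, which reads the same on both strands, was in the window of 9 of 34 genes (26.5%) and of 8.09% of 27025 genes. The ETS-type motif GGAAGTG was found on either strand for 13 of 34 (38.2%) and for 12.5% of all genes. The GATA motif AGATAAG was found on neither strand of any of the 34 windows and in 3.5% of all genes. None of the 3 motifs contains another. Capitals mark the motif as found, 5′ to 3′ on the gene's strand.
Grwd1, E-box, chr7:45830740-45830769, minus strand: aagggccggagtcgCACGTGtgaaaccgga
Grwd1, ETS-type motif, chr7:45830808-45830837, minus strand: aggtgaaacccGGAAGTGacgctctcactt
Pes1, E-box, chr11:3963965-3963994, plus strand: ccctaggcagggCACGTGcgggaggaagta
Nop2, E-box, chr6:125131811-125131840, plus strand: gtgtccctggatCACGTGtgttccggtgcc
Tsr1, E-box, chr11:74898092-74898121, plus strand: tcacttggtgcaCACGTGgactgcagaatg
Nhp2, ETS-type motif, chr11:51619741-51619770, plus strand: cttgaaaacccGGAAGTGatgtcggaggcg

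In 7 of the 9 genes the E-box lay after the start site, from base 3 in Pes1 to base 41 in Mybbp1a, counting the first transcribed base as 1. It lay before the start site in Nop2 (base −60) and Imp4 (base −121). Of the 31 tested genes with a window, the 7 with an E-box had a median change of −0.24 in Gata2 KD and −0.03 in Pu.1 KD, and the 24 without had −0.21 and −0.09. The 12 with GGAAGTG had a median of −0.04 in Pu.1 KD against −0.12 for the 19 without it. A match in a window is a description of its letters and not of binding.

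Transcription of ribosomal RNA starts with RNA polymerase I. None of the 3 genes of this group was called. Polr1a, the largest subunit, read 3.017, 3.366 and 3.003 on EV, 3.295, 3.211 and 3.054 on Gata2 KD and 3.066, 3.349 and 3.032 on Pu.1 KD arrays, and its fitted changes were 0.06 and 0.02. Between slides lay 85.5% of its variance over the arrays and between groups 2.87%. Polr1b, the second largest subunit, read 0.121, 0.304 and 0.470 on EV, −0.010, 0.101 and 0.083 on Gata2 KD and 0.769, 0.631 and 0.133 on Pu.1 KD arrays. All its Gata2 KD arrays were below all the others, but neither −0.24 against EV (adjusted p = 0.728) nor −0.45 against Pu.1 KD (adjusted p = 0.238) passed limma's test. Ubtf, a transcription factor of the ribosomal RNA genes, differed from EV by −0.17 and −0.12 with adjusted p-values of 0.742 and 0.934.

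No gene of the abundant nucleolar proteins was called by its brightest probe, and for 1 of them that probe rests on a single array. Npm1 (nucleophosmin, a chaperone of the nucleolus) read 6.669, 6.958 and 6.705 on EV, 6.879, 6.413 and 6.480 on Gata2 KD and 6.558, 7.027 and 6.784 on Pu.1 KD arrays. By this probe the groups overlapped, and 72.1% of its variance lay between slides. A second Npm1 probe read 6.307, 6.182 and 6.321 on EV, 5.959, 5.931 and 6.107 on Gata2 KD and 6.322, 6.265 and 6.675 on Pu.1 KD arrays. Its Gata2 KD arrays lay below all others, with a change of −0.27 against EV that was not called (limma adjusted p = 0.503). Ncl (nucleolin) read 6.661, 6.722 and 5.201 on EV, 6.281, 6.351 and 6.502 on Gata2 KD and 6.797, 6.895 and 6.739 on Pu.1 KD arrays. EV replicate 3 was thus more than 1 log2 unit below every other array. A second bright Ncl probe showed the same drop, with 6.103, 6.323 and 4.834 on EV, while the remaining 2 probes did not (2.158, 2.342 and 2.288 for one, −0.398, −0.058 and 0.117 for the other). The first of these, without the drop, read 1.935, 1.865 and 1.857 on Gata2 KD and 2.412, 2.569 and 2.209 on Pu.1 KD arrays. Its Gata2 KD arrays lay below all others, by 0.38 against EV (adjusted p = 0.225) and by 0.51 against Pu.1 KD (adjusted p = 0.057, and 0.0182 with slide as a block). For the brightest probe, the fitted Ncl change of 0.62 in Pu.1 KD (SE 0.37, limma adjusted p = 0.646) became 0.12 without EV replicate 3, and that of 0.18 in Gata2 KD became −0.31. Ddx21 (a nucleolar RNA helicase), Nolc1 and Mybbp1a had fitted changes of −0.34, −0.14 and 0.06 in Gata2 KD and of −0.27, −0.12 and −0.03 in Pu.1 KD, and their groups overlapped in both.

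Small nucleolar ribonucleoproteins guide the modification of ribosomal RNA, and no box C/D gene was called. Fbl (fibrillarin, the methyltransferase) read 6.888, 7.130 and 6.983 on EV, 6.965, 6.869 and 6.769 on Gata2 KD and 7.032, 7.174 and 7.017 on Pu.1 KD arrays. All 3 Gata2 KD arrays lay below all Pu.1 KD arrays, at a difference of −0.21 (limma adjusted p = 0.548). The core partners Nop56 and Nop58 had fitted changes of −0.18 and −0.31 in Gata2 KD and of 0.03 and 0.00 in Pu.1 KD. Rrp9, of the box C/D particle that works in small subunit processing, read 1.483, 1.440 and 1.450 on EV, 1.300, 1.524 and 1.439 on Gata2 KD and 1.180, 1.314 and 1.176 on Pu.1 KD arrays. Its Pu.1 KD arrays were all below EV, with a change of −0.23 and an adjusted p of 0.549.

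Among the box H/ACA genes, which serve pseudouridylation, Nhp2 was the one whose 3 groups did not overlap. Nhp2 read 5.056, 5.057 and 5.057 on EV, 5.192, 5.237 and 5.255 on Gata2 KD and 4.762, 4.889 and 4.918 on Pu.1 KD arrays. Every Gata2 KD array was above and every Pu.1 KD array below the EV arrays, and 92.9% of the variance lay between groups. The differences were small, 0.17 (limma adjusted p = 0.639) and −0.20 (adjusted p = 0.622) against EV. Between the knockdowns the difference was 0.37 (SE 0.12, adjusted p = 0.0962), which was called only where slide was a block (adjusted p = 0.0438), in the eBayes trend and robust fit (0.0162) and from the deposited log2 values (0.036). Slide as a block called 14.1% of all probes in this comparison. Dkc1 (dyskerin, the pseudouridine synthase) read 0.122, 0.630 and 0.601 on EV, 0.213, −0.376 and −0.059 on Gata2 KD and 0.246, 0.782 and 0.240 on Pu.1 KD arrays. It was lower in Gata2 KD than in EV on every slide, by 0.52 in the fit (adjusted p = 0.348), though the arrays overlapped. Gar1 read 1.317, 1.857 and −1.031 on EV, 1.137, 1.473 and 1.394 on Gata2 KD and 1.809, 1.970 and 1.122 on Pu.1 KD arrays. EV replicate 3 was again the low array, and without it the fitted Gar1 changes of 0.62 and 0.92 became −0.25 and 0.05.

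**Figure D2:**
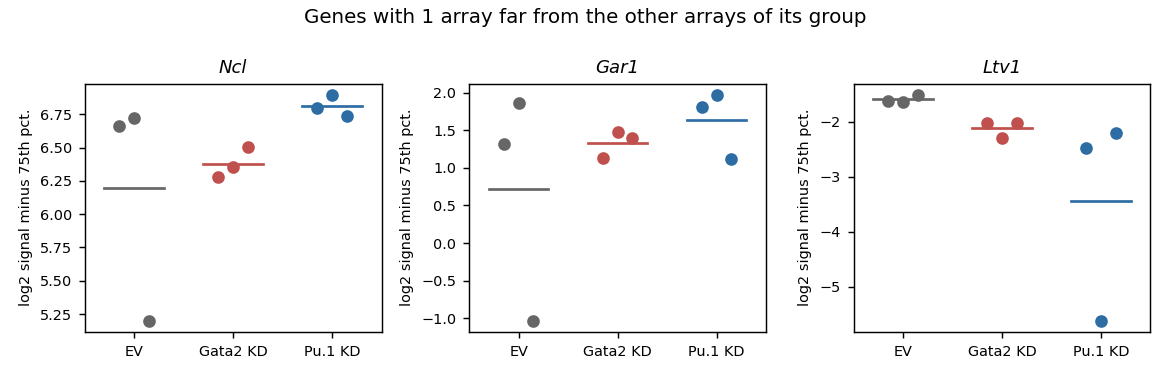
Log2 signal minus the array's 75th percentile for Ncl, Gar1 and Ltv1, with 1 point for each of the 3 arrays of a group and a line at the group mean. For Ncl and Gar1 the low point is EV replicate 3, and for Ltv1 it is Pu.1 KD replicate 2 at −5.612.

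In the small subunit processome and the maturation of the small subunit, 9 of 11 listed genes were measured and Noc4l stood out. Noc4l, a nucleolar partner of Nop14, read 3.151, 2.826 and 3.015 on EV, 2.313, 2.600 and 2.599 on Gata2 KD and 3.183, 3.244 and 3.200 on Pu.1 KD arrays. Gata2 KD arrays were below all EV arrays and Pu.1 KD arrays above them. It was 1.63-fold lower in Gata2 KD against Pu.1 KD (log2 difference −0.71, SE 0.15, limma adjusted p = 0.0171), and the differences on the 3 slides were −0.60, −0.58 and −0.93. Against EV the change was −0.49 in Gata2 KD (adjusted p = 0.115) and 0.21 in Pu.1 KD (adjusted p = 0.734). The call between the knockdowns was kept in 14 of 21 alternatives and lost at adjusted p-values of up to 0.0747. A 2-fold minimum, not counted among the 21, also removed it. Leaving out Gata2 KD replicate 1 or 2 or any 1 of the Pu.1 KD arrays was enough to lose it, at 0.0511 to 0.0684.

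Nop14, the partner of Noc4l, read 1.047, 1.356 and 1.312 on EV, 0.588, 1.072 and 1.230 on Gata2 KD and 1.608, 1.355 and 0.842 on Pu.1 KD arrays. By this probe its groups overlapped in all comparisons. A dimmer Nop14 probe lay wholly below EV in both knockdowns. Its changes were −0.41 in Gata2 KD and −0.74 in Pu.1 KD (limma adjusted p = 0.428 and 0.13), and neither was called. Bysl (bystin, needed for small subunit maturation) read 3.511, 3.687 and 3.796 on EV, 3.378, 3.494 and 3.155 on Gata2 KD and 3.254, 3.273 and 3.110 on Pu.1 KD arrays. Both knockdowns lay wholly below EV, by 0.32 and 0.45 in the fit, with limma adjusted p-values of 0.363 and 0.202. With slide as a block, which called 7.99% of all probes in Gata2 KD and 5.00% in Pu.1 KD, the Bysl change in Pu.1 KD passed the test (adjusted p = 0.0469) and that in Gata2 KD did not (0.0939). A second Bysl probe gave −0.11 and −0.19 and the last −0.46 and −0.46, and neither was called without the block. With slide as a block the last was called lower in Gata2 KD (adjusted p = 0.0405) and not in Pu.1 KD (0.0528).

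Ltv1, a factor of late small subunit maturation, had the largest fitted change and the largest error. It read −1.616, −1.632 and −1.508 on EV, −2.011, −2.296 and −2.017 on Gata2 KD and −2.470, −5.612 and −2.208 on Pu.1 KD arrays. Both knockdowns lay below EV on every array, but the change of −1.84 in Pu.1 KD (SE 0.77, limma adjusted p = 0.374) became −0.75 without Pu.1 KD replicate 2 (adjusted p = 0.117). Utp14a differed from EV by −0.19 in Gata2 KD and −0.61 in Pu.1 KD (adjusted p = 0.259), where its arrays were all below EV. Heatr1, Imp4, Rrp12 and Tsr1 had fitted changes of −0.19, −0.04, 0.29 and −0.27 in Gata2 KD and of −0.28, 0.00, 0.01 and 0.02 in Pu.1 KD.

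Large subunit assembly held the gene called against EV. Grwd1, a WD-repeat protein that takes part in large subunit assembly, read 2.370, 2.366 and 2.458 on EV, 2.042, 2.066 and 2.237 on Gata2 KD and 1.618, 1.815 and 1.752 on Pu.1 KD arrays. The 3 groups did not overlap, with Gata2 KD between EV and Pu.1 KD, and 93.3% of the variance lay between groups. Grwd1 fell 1.59-fold in Pu.1 KD (log2 change −0.67, SE 0.13, limma adjusted p = 0.0318), by 0.62, 0.84 and 0.55 on the 3 slides. In Gata2 KD the difference was −0.28 (adjusted p = 0.351). A second Grwd1 probe gave −0.61 in Pu.1 KD (adjusted p = 0.0826). The call was kept in 9 of 21 alternatives and was lost without any 1 of the 9 arrays (adjusted p from 0.052 to 0.154), with changes between −0.71 and −0.61. A 2-fold minimum, not counted among the 21, also removed it.

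The PeBoW complex (Pes1, Bop1 and Wdr12), which processes large subunit precursor RNA, had negative fitted changes in both knockdowns, none of them called. Pes1 read 3.902, 3.820 and 4.258 on EV, 3.736, 3.774 and 3.736 on Gata2 KD and 3.656, 3.718 and 3.680 on Pu.1 KD arrays. Its arrays in both knockdowns were below all EV arrays, by 0.24 and 0.31 in the fit (limma adjusted p = 0.555 and 0.464). Its second probe read differently, at 0.03 in Gata2 KD and −0.54 in Pu.1 KD, and was called between the knockdowns (0.57, adjusted p = 0.0428), which made it the only one of 25 further member probes called in the model without a block. The slide block called it also in Pu.1 KD against EV (adjusted p = 0.0378). Bop1 differed from EV by −0.12 and −0.37 and Wdr12 by −0.35 and −0.22, and their arrays overlapped with EV. Rrs1, a large subunit assembly factor, read 1.576, 1.481 and 1.984 on EV, 1.455, 0.926 and 1.076 on Gata2 KD, and 0.978 and 1.191 on Pu.1 KD arrays, with replicate 2 missing as an outlier spot. Both knockdowns were below EV, by 0.53 (adjusted p = 0.279) and by 0.60 with 2 Pu.1 KD arrays (adjusted p = 0.335). Nop2, an RNA methyltransferase, differed by −0.03 and 0.14. Of the others, Noc3l (−0.37 and −0.39) and Nop16 (−0.24 and −0.33) had negative values in both knockdowns. The values of Noc2l, Nip7 and Wdr74 were −0.22, −0.23 and 0.07 in Gata2 KD and −0.01, −0.07 and −0.05 in Pu.1 KD. Those of Rrp1b were 0.21 and −0.11, while its dimmer probe gave −0.29 and −0.58. None of these was called. As a group, 10 of 12 large subunit genes were negative in Gata2 KD (median −0.23), where 66.1% of all probes were negative. In Pu.1 KD 11 of 12 were negative (median −0.27), against 57% of all probes. The 1 of 12 called was lower in Pu.1 KD, beside 1.40% of all probes called lower there. Negative changes were not confined to this group. In Gata2 KD they made up 8 of 9 small subunit genes (median −0.27) and 4 of 4 box C/D genes. They also made up 2 of 3 RNA polymerase I, 3 of 5 multifunctional nucleolar and 1 of 3 box H/ACA genes there. In Pu.1 KD the counts were 5, 2, 1, 3 and 2 in the same order.

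**Figure D3:**
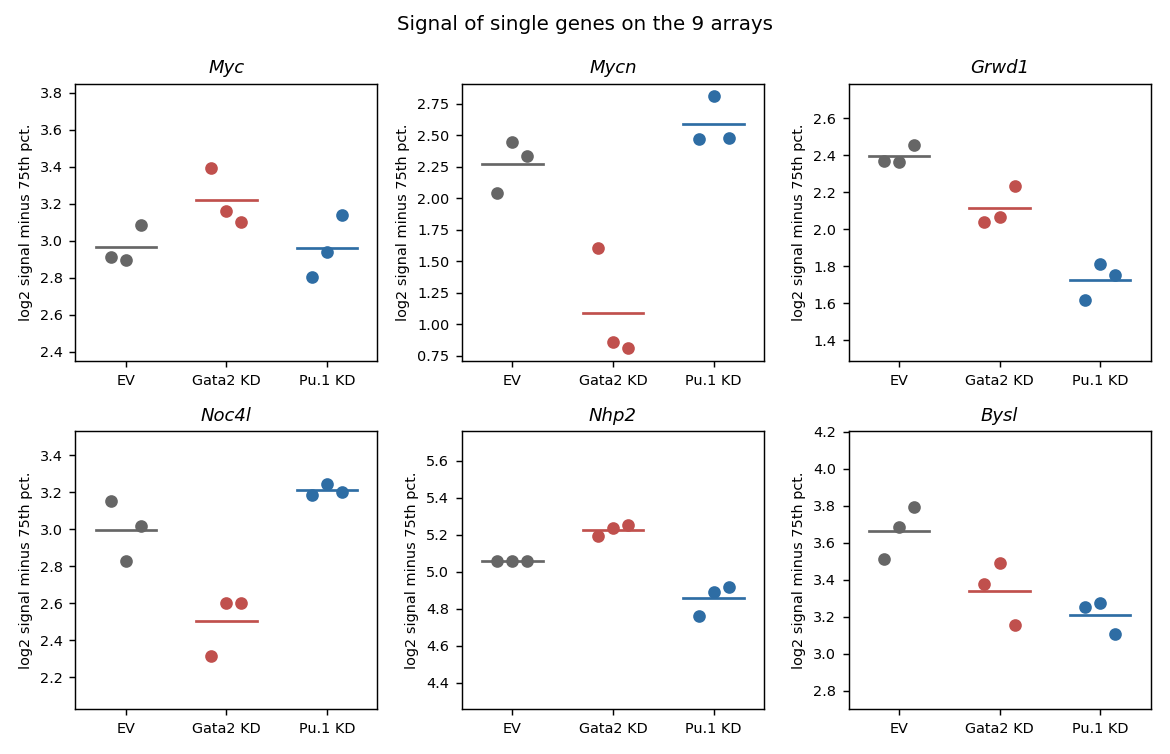
Log2 signal minus the array's 75th percentile for Myc, Mycn, Grwd1, Noc4l, Nhp2 and Bysl on the 9 arrays, with 1 point per array, a line at each group mean and a scale of its own for each gene. Grwd1 points are highest on EV and lowest on Pu.1 KD arrays, while Mycn is lowest on the 3 Gata2 KD arrays and Myc levels lie close together.

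A wider list of the same pathway also held few calls, but its changes against EV were more often negative than those of all probes. Of 100 other ribosome biogenesis genes 89 were tested, with a median change of −0.19 in Gata2 KD, −0.15 in Pu.1 KD (members −0.05) and −0.03 between the knockdowns. Negative changes made up 84.3% in Gata2 KD and 79.8% in Pu.1 KD, against 66.1% and 57% of all probes. Of the list, 1 gene was called lower in Gata2 KD and 1 lower in Pu.1 KD, beside 2.33% and 1.40% of all probes. Between the knockdowns 1 was higher and 2 were lower, beside 4.68% and 4.94%. Gtpbp4, a GTPase of large subunit assembly, read 1.510, 1.720 and 1.420 on EV, 1.204, 1.146 and 1.283 on Gata2 KD and 0.395, 0.564 and 0.394 on Pu.1 KD arrays. It fell 2.14-fold in Pu.1 KD (log2 change −1.10, SE 0.14, limma adjusted p = 0.00623), kept the call in 18 of 20 alternatives, and was 0.76 higher in Gata2 KD than in Pu.1 KD (adjusted p = 0.00826). Rrp15 fell by 0.68 in Gata2 KD (adjusted p = 0.0397), a call kept in 6 of 18 alternatives. Nob1, the nuclease of late small subunit maturation, and Rrn3, which recruits RNA polymerase I, lay below their Pu.1 KD level in Gata2 KD, by 1.02 (adjusted p = 0.0251) and 0.74 (adjusted p = 0.0332). Their calls were kept in 13 and 11 of 20 alternatives. With slide as a block the counts in this list were 2, 2 and 6, adding Polr1e (lower in Gata2 KD in both its comparisons), Utp23 (lower in Pu.1 KD in both) and Wdr18 (higher in Gata2 KD than in Pu.1 KD).

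The structural genes of the ribosome were the flattest list, though their changes were less often negative than those of all probes. None of 80 cytoplasmic ribosomal protein genes was called in any comparison, with 1, 2 and 1 at an unadjusted limma p below 0.05. The slide block called 1 of them, Rpl27a, lower in Pu.1 KD than in EV (adjusted p = 0.0484) and than in Gata2 KD (0.0492). Their medians were 0.05 in Gata2 KD, 0.02 in Pu.1 KD and 0.04 between the knockdowns, and all 80 intervals lay within 1 log2 unit of 0 in each. The medians of all probes were −0.11, −0.04 and −0.06. Of the 80 changes 25%, 27.5% and 36.2% were negative, against 66.1%, 57% and 58.3% of all probes. Of 29 cell cycle genes none was called either, with medians of −0.17, −0.11 and −0.12 and 10, 2 and 2 genes at an unadjusted p below 0.05 (34.5%, 6.9% and 6.9%, against 15%, 12.3% and 18.7% of all probes). Of their changes 79.3%, 65.5% and 69% were negative. The slide block called Tyms (thymidylate synthase) lower in Gata2 KD (−0.49, adjusted p = 0.0217).

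Within the MYC and MAX network, 11 of 12 genes were tested and Mycn changed most. Mycn, the paralog of Myc active in early progenitors, read 2.040, 2.448 and 2.333 on EV, 1.610, 0.857 and 0.809 on Gata2 KD and 2.474, 2.810 and 2.480 on Pu.1 KD arrays. Its Gata2 KD arrays were below all others. It was 2.27-fold lower in Gata2 KD than in EV (log2 change −1.18, SE 0.24, limma adjusted p = 0.0261) and 2.82-fold lower than in Pu.1 KD (−1.50, adjusted p = 0.00499). The call against Pu.1 KD was kept in all 20 alternatives and that against EV in 11 of 20. A dimmer Mycn probe read −1.729, −1.952 and −1.645 on EV, −2.634, −1.752 and −2.010 on Gata2 KD and −1.503, −1.555 and −1.697 on Pu.1 KD arrays, so that its Gata2 KD arrays overlapped with EV and lay below all Pu.1 KD arrays. Mxd3, an antagonist of MYC, was 0.71 lower in Gata2 KD against Pu.1 KD (adjusted p = 0.0456), a call kept in 11 of 20 alternatives and lost without any 1 of 7 arrays (adjusted p up to 0.15). Its difference in Pu.1 KD from EV was 0.85 (adjusted p = 0.0542), which passed with slide as a block (0.0226). Max, the common partner, differed from EV by 0.06 and −0.05 and Mnt, an antagonist, by 0.18 and 0.00, neither of them called.

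Among 27 tested MYC target genes outside the ribosome the median change was −0.21 in Gata2 KD, −0.11 in Pu.1 KD and −0.21 between the knockdowns. Of these changes 81.5%, 55.6% and 66.7% were negative, against 66.1%, 57% and 58.3% of all probes. Ccnd2 (cyclin D2) read 4.530, 4.686 and 4.718 on EV, 4.822, 4.965 and 4.779 on Gata2 KD and 5.573, 5.447 and 5.291 on Pu.1 KD arrays. It rose 1.73-fold in Pu.1 KD (log2 change 0.79, SE 0.14, limma adjusted p = 0.0221) and was 0.58 lower in Gata2 KD against Pu.1 KD (adjusted p = 0.031), calls that were each kept in 11 of 20 alternatives. Odc1 (ornithine decarboxylase, of polyamine synthesis) was 0.50 lower in Gata2 KD against Pu.1 KD (adjusted p = 0.048) and kept this call in 6 of 20. No MYC target was called in Gata2 KD against EV, with 7 of 27 (25.9%) at an unadjusted limma p below 0.05, against 15% of all probes. The counts were 7 in Pu.1 KD (25.9% against 12.3%) and 9 between the knockdowns (33.3% against 18.7%). With slide as a block, Prps2 (−0.54, adjusted p = 0.0369) and Tfrc (−0.55, adjusted p = 0.0279), which is also on the erythroid marker list, were called lower in Gata2 KD against EV. The same block called Paics lower in Pu.1 KD (adjusted p = 0.0347). Between the knockdowns it called 5 MYC targets lower in Gata2 KD in place of 2, adding Cad, Hspd1 and Tfrc. It called 14.1% of all probes in this comparison, in either direction.

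**Figure D4:**
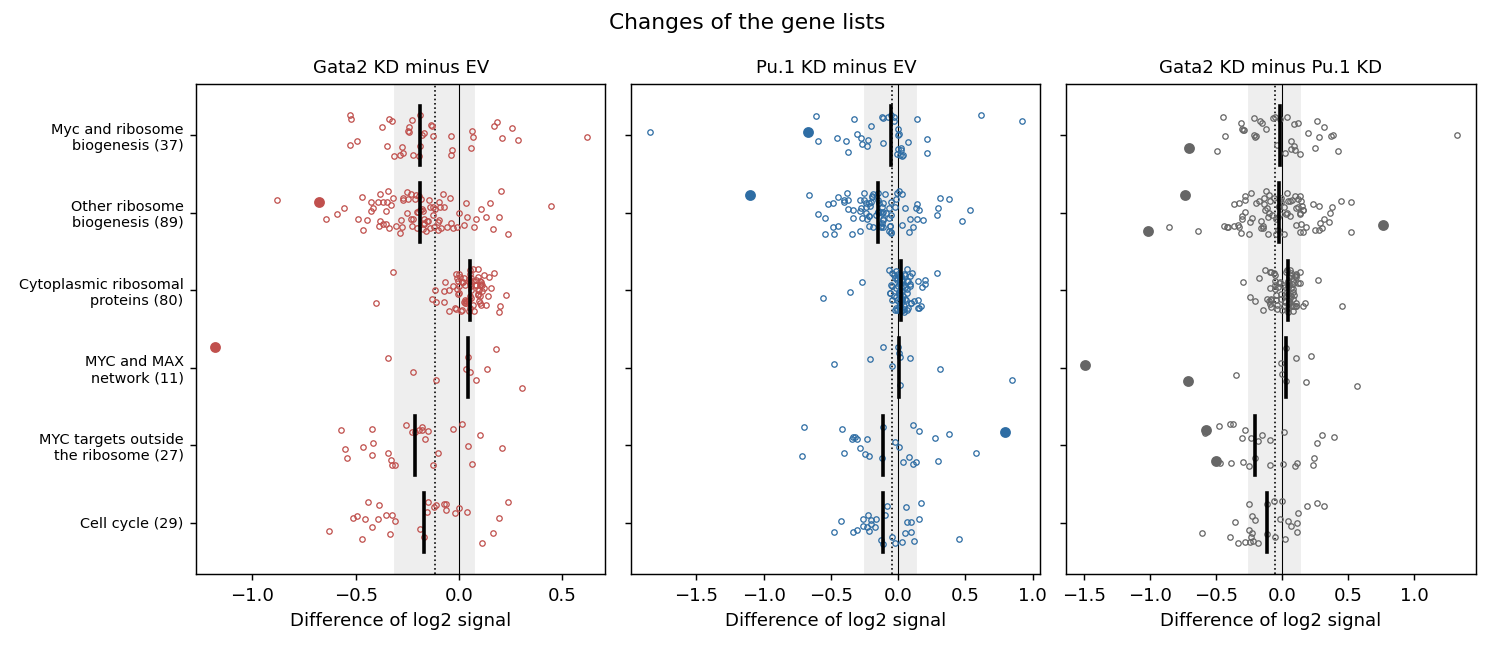
Difference of log2 signal for the genes of 6 lists in the 3 comparisons, with 1 point per gene (spread vertically for sight), filled where limma's adjusted p was below 0.05, and a thick bar at the list median. The shaded band holds the middle part of all tested probes from lower to upper quartile, and the dotted line is their median. Ribosomal protein genes cluster near 0, and the filled point at the far left of the Gata2 KD panel is Mycn.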

How the data were processed

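RNA (150 ng per sample) was Cy3-labeled for Agilent whole mouse genome arrays, and groups came from the sample titles. The authors deposited scanner files (Agilent Feature Extraction 10.1.1.1), in which the processed signal is an intensity, background-subtracted within each array and not scaled across arrays. A deposited table of log2 values, of unstated processing, served only as an alternative.

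Processed signals were put on a log2 scale and each array's 75th percentile was subtracted, so dim spots depend on the background correction. Outlier-flagged spots (47 to 96 on each array) were missing, and spots of a probe were averaged. A probe was tested when well above background on at least 3 of 9 arrays with 2 or more values per group, which kept 36585 of 41174. Accessions were matched to RefSeq genes (GRCm38.p6), naming 23374 probes. The array design is annotated to another build, so no probe coordinates are given. The brightest tested probe stood for a gene. All 9 arrays entered 1 model of group means in limma 3.58.1 (R 4.3.3, eBayes, two-sided), and p-values were adjusted by Benjamini-Hochberg across every tested probe, with calls below 0.05. The code was tested on simulated data. The number of arrays limits the precision.

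The members and lists were chosen with earlier results of these data known. Values on every array are given for Myc, called genes and leading genes of each role group, and up to 3 called genes per direction and comparison are named from each other list. Bysl, Nhp2, Gar1, Ltv1, Rrp9, the values of Max and Mnt and genes called only with slide as a block were picked after their values were seen. Normexp used the median signal with an offset of 50, since the files used here hold no mean signal. Replicate numbers did not pair the arrays (correlation of deviations from −0.552 to 0.652, the highest being a same-slide pair). Arrays of 1 slide correlated at 0.264 to 0.719 except 1 pair at −0.0408, and slide was a block only as an alternative. Alternatives were a block of replicate number or slide, normexp, quantile and median scaling, other filters, outliers kept, trend and robust eBayes, the authors' log2 table, models of 2 groups, a 2-fold minimum, the mean of all probes and each array left out. For genes of the other lists these were added after seeing the data. Counts of alternatives given for single genes leave out the 2-fold minimum.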

Additional observations from a re-analysis of the deposited data

How the results depend on the processing

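The member count in Gata2 KD against EV stayed at 0 except under trend and robust eBayes (1, Noc4l). In Pu.1 KD it was 0 instead of 1 with the replicate number as a block, median scaling, only the groups compared or a 2-fold minimum, and 2 with slide as a block, normexp or the deposited log2 values, which add Bysl. Between the knockdowns it was 0 with the replicate block, median scaling or a 2-fold minimum, 2 with the slide block and 3 with trend and robust eBayes or the deposited log2 values. With single arrays left out it was 0 in Pu.1 KD and 0 to 1 between the knockdowns. The cause was not tested.

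The members' median change ranged from −0.20 to −0.13 in Gata2 KD and from −0.10 to −0.01 in Pu.1 KD over the other settings, and with single arrays left out from −0.24 to −0.14 and from −0.19 to 0.0016. Between the knockdowns its sign varied (−0.14 to 0.03 with arrays left out). The lowest Pu.1 KD values came without EV replicate 1 (−0.19) and without Pu.1 KD replicate 2 (−0.17).

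Over all probes, calls in Gata2 KD numbered 1890, against 1167 with the replicate block, 2924 with the slide block, 1191 with median scaling, 1106 with only the groups compared, 1092 with a 2-fold minimum, and 1047 to 1695 with an array left out. In Pu.1 KD there were 962, against 227 with the replicate block, 1830 with the slide block, 368 with median scaling, 1565 with trend and robust eBayes, 1785 from the deposited log2 values, 219 with only the groups compared, 523 with a 2-fold minimum, and 274 to 822 with an array left out. Between the knockdowns there were 3517, against 2266 with median scaling, 1891 with a 2-fold minimum, and 2211 to 3941 with an array left out. Median scaling put 69.4% of the Gata2 KD calls higher, against 54.8%. Quantile normalization brought the median of all probes in Gata2 KD from −0.11 to −0.02 and left the members 0.13 below it. Replicate numbers share no design, and the replicate block moved the Grwd1 adjusted p in Pu.1 KD to 0.138 and that of Noc4l between the knockdowns to 0.0747. Of the alternative values for single genes, 2534 kept their side of the threshold, 100 lost the call and 9 gained one.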
